A study of Mus musculus with 31 samples.

Results

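The genes described are 10 of the 55536 in the deposited count tables: the opioid receptor genes Oprm1, Oprd1, Oprk1 and Oprl1, the cannabinoid receptor gene Cnr1, the GABA-B receptor subunit genes Gabbr1 and Gabbr2, the serotonin receptor gene Htr1d, the somatostatin receptor gene Sstr2 and the adenosine receptor gene Adora1. They were chosen by symbol as inhibitory receptors that are targets of analgesic drugs or peptides, and each symbol matched 1 Ensembl identifier in the GENCODE M21 annotation of the mouse genome build GRCm38. The measurements were made by translating ribosome affinity purification (TRAP), in which ribosomes carrying a GFP-tagged L10a protein are pulled down and the RNA bound to them is sequenced. Mice that carried both Nav1.8-Cre and the allele L10a-eGFP-fl/fl express Cre in neurons that use the sodium channel Nav1.8 (gene Scn10a), and mice with the same L10a-eGFP-fl/fl allele but no Cre gave the negative controls. The former gave the Cre libraries and the latter the control libraries.

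The 31 libraries fell into 8 groups. Batch 1 of the labels held lumbar dorsal roots with spinal cord (called central axon, 4 Cre and 4 control libraries) and lumbar dorsal root ganglia (called soma, 4 Cre and 4 control libraries). Batch 2 held sciatic nerve (called peripheral axon, 4 Cre and 3 control libraries) and further lumbar dorsal root ganglia (4 Cre and 4 control libraries). The labels call the replicates biological but gave no age, sex or treatment and did not say whether animals were pooled, so every p-value measures only the spread between these libraries. The tag is limited to cells in which Nav1.8-Cre has acted, which includes several classes of sensory neuron, and the tissue taken for central axons also holds spinal cord cells that lack the tag. Axon type and batch coincide, and each axon was therefore compared with the somas of its own batch.

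All 10 genes encode G protein-coupled receptors, or a subunit of one, that signal through Gi/o proteins. Their activation lowers cyclic AMP, opens inwardly rectifying potassium channels through G protein beta-gamma subunits and closes voltage-gated calcium channels, which reduces transmitter release from sensory terminals. Such receptors are placed both at the central endings in the dorsal horn and at the peripheral endings of nociceptors, the sensory neurons that detect tissue damage, and transcripts in axons could be translated near those sites.

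Gabbr1 and Gabbr2, whose products must assemble to make 1 receptor, had the highest median levels of the 10 genes per kilobase of exon in each of the 4 groups of Cre libraries. The bases upstream of their annotated starts are given because their transcripts were followed as a ratio in every library. Both were taken from the RefSeq promoter table of build GRCm38.p6, Gabbr1 from chr17:37045716-37045965 on the plus strand and Gabbr2 from chr4:46991874-46991964 on the minus strand, cut so that each ends just before the gene's GENCODE start. Capitals mark GC boxes (GGGCGG, searched on both strands).
Gabbr1: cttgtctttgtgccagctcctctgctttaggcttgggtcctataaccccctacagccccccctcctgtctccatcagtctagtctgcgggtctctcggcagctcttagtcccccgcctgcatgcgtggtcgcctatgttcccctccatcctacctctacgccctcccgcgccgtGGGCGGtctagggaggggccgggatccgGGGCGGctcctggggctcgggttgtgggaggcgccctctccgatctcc
Gabbr2: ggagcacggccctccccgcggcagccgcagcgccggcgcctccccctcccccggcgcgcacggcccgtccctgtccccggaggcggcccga
The Gabbr1 stretch of 250 bases holds 2 GC boxes and the shorter Gabbr2 stretch of 91 bases holds 0, while the uncut Gabbr2 window of 250 bases also holds 2. Among the 250 bases before each RefSeq start, 9 of the 10 genes matched an entry (all but Oprk1), with 17 start sites between them. A GC box lay in 8 of those 17 windows, against 32.7% of the 32851 windows of all genes. The cyclic AMP response element (TGACGTCA) lay in 1 of the 17, that of Sstr2, against 1.55% of all windows.

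Total counts per library ran from 3601399 to 19637292, so that 3 counts, taken as the smallest detectable amount, corresponded to between 0.153 and 0.833 CPM (each count scaled to a common library total). Intervals and floors cover counting error only, since the libraries carry no molecular identifiers. The gene of the Cre driver, Scn10a, was at 45.1 to 421 CPM in the central axon Cre libraries but at 0 to 29.9 CPM in their controls, and at 33.4 to 624.6 CPM in the batch 1 soma controls and 286 to 598 CPM in the batch 2 soma controls, ranges that overlapped those of the Cre somas. Scn10a passed the test in 0 of the 4 comparisons of Cre with control libraries, with a log2 difference of 4.52 (SE 1.72, edgeR adjusted p = 0.818) in central axons and -0.47 to 1.59 in the other 3. Some controls stood apart. Peripheral axon control 4 had 0 counts of Scn10a and of all 10 receptor genes. Batch 1 soma control 3 took a TMM scaling factor of 0.0547 in its comparison with the Cre somas, the lowest of all. Genes with at least 10 counts numbered 4934 to 7889 in the batch 1 soma controls and 12502 to 14015 in their Cre somas. A count of 0 in such a control bounds the level by counting error only.

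Cell type markers differed between the tissues. Summed markers of inhibitory and motor spinal neurons (7 genes) reached 92.2 to 305 CPM in the central axon Cre libraries and 134 to 609 CPM in their controls, against 1.36 to 6.99 CPM in the batch 1 Cre somas, where Slc32a1, Gad2, Slc6a5, Chat and Mnx1 were at 0 in every library. Astrocyte markers (6 genes) summed to 296 to 1347 CPM in the central axon Cre libraries, against 1.98 to 32.0 CPM in batch 1 Cre somas. Summed Schwann cell markers (7 genes) were at 7459 to 20503 CPM in peripheral axon Cre libraries and 346 to 613 CPM in batch 2 Cre somas. Summed nociceptor markers (8 genes) were at 836 to 4901 CPM in central axon, 452 to 1501 CPM in peripheral axon, 2524 to 5636 CPM in batch 1 soma and 2401 to 4295 CPM in batch 2 soma Cre libraries. The part of these other cells in the receptor results was not tested, and in such bulk libraries fewer cells of a type and less RNA per cell cannot be told apart.

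**Figure D1:**
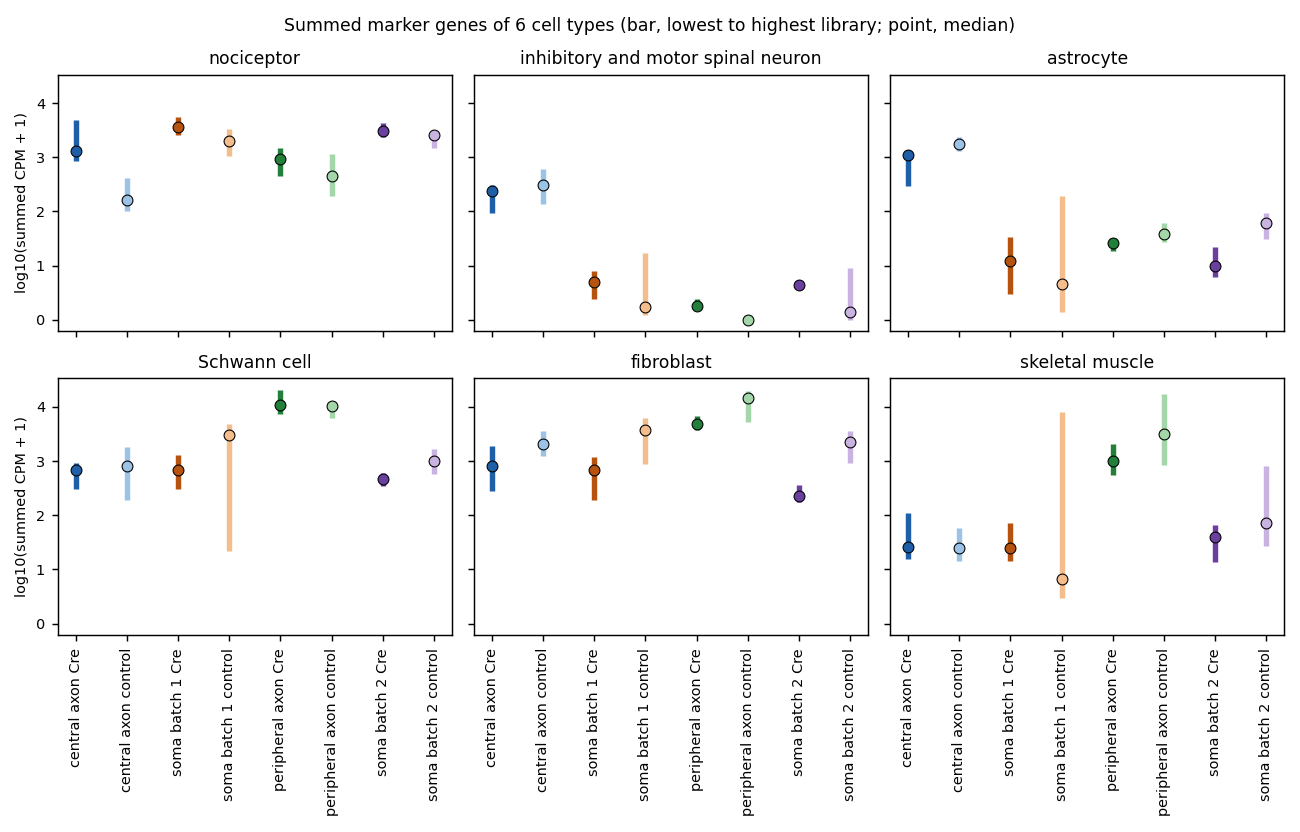
Summed CPM of the marker genes of 6 cell types on a log10(CPM + 1) axis, with bars from the lowest to the highest library of each of the 8 groups and points at the median. Spinal neuron and astrocyte markers stood high in both central axon groups, and Schwann cell and fibroblast markers in both peripheral axon groups.

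The receptor genes ranged from abundant to barely counted. Levels were compared between genes only per kilobase of exon. In the central axon Cre libraries the median level was 32.7 CPM per kb for Gabbr1, 20.2 for Gabbr2, 12.3 for Adora1, 12.1 for Oprl1 and 6.36 for Cnr1, while Htr1d, Sstr2, Oprk1, Oprd1 and Oprm1 lay between 1.59 and 0.190 CPM per kb. In the batch 2 Cre somas, the deepest group, Gabbr1 (23.6 CPM per kb), Gabbr2 (18.4) and Adora1 (5.27) again came first, and Oprm1 stood at 0.344. A receptor counted as detected with at least 10 counts was found for 9 or 10 of the 10 genes in each central axon Cre library, 8 or 9 in each batch 2 Cre soma and 4 to 9 in the batch 1 Cre somas. The peripheral axon Cre libraries had 8 in replicate 2, which held 15058971 counts, and 4 in each of the other replicates, which held 4097863 to 5768003. Control libraries had between 0 and 8. When the 8 groups were ordered by mean CPM for each gene, all 70 pairs of neighbouring groups had overlapping ranges.

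**Figure D2:**
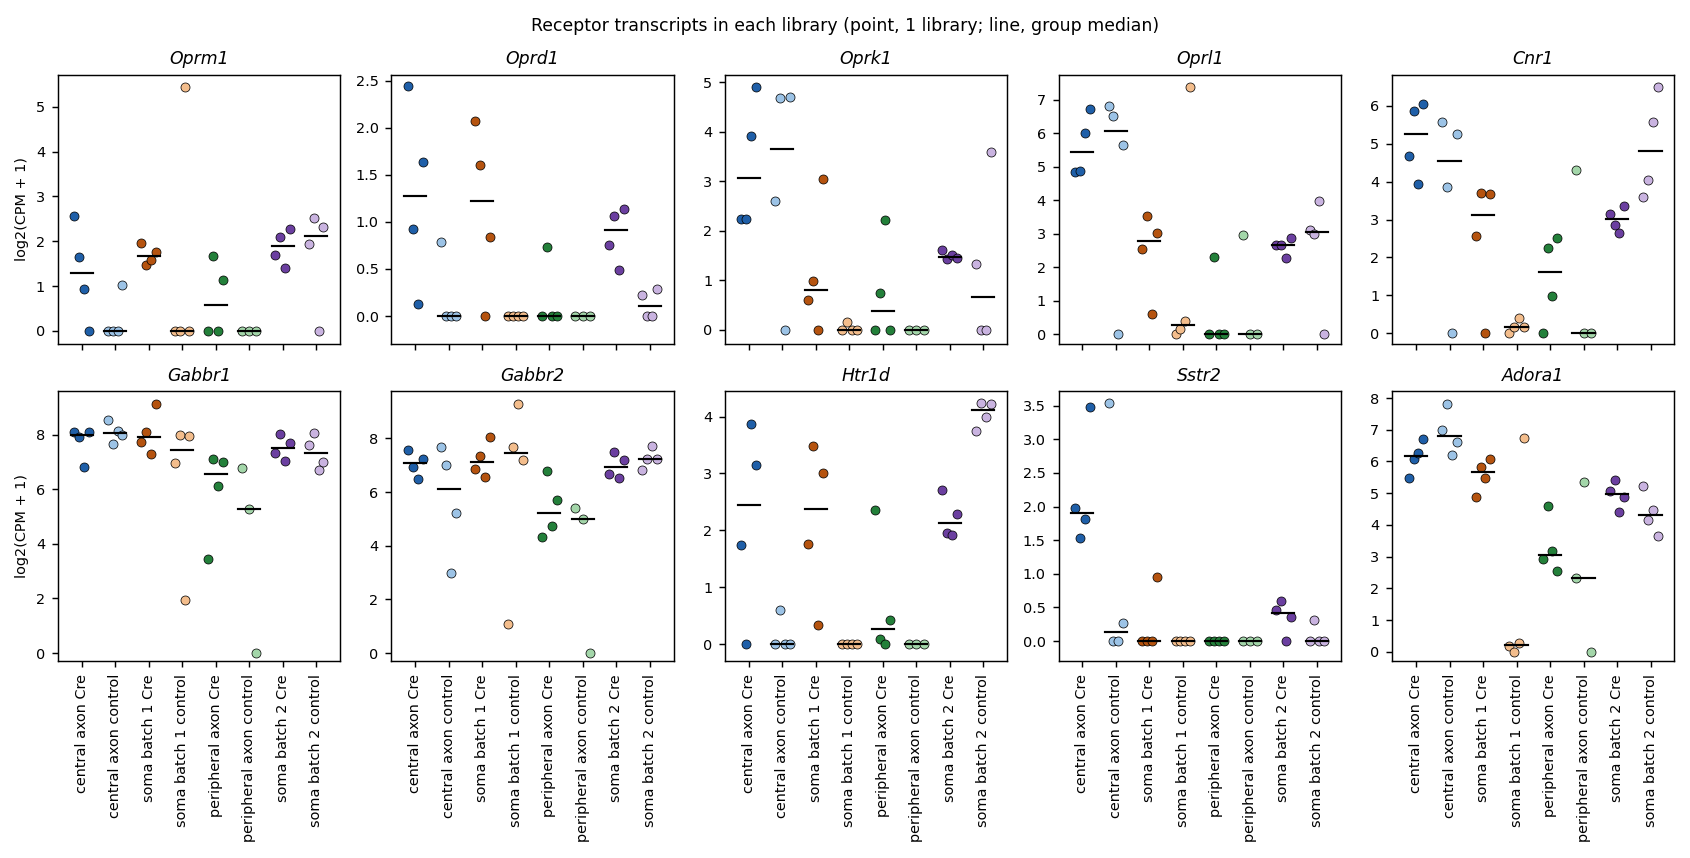
Level of each of the 10 receptor genes in every library, as log2(CPM + 1), with 1 point for each library, the 8 groups on the horizontal axis and a line at each group's median. Gabbr1, Gabbr2 and Adora1 were counted in nearly all libraries, whereas Oprm1, Oprd1 and Sstr2 lay at 0 in many.

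Oprm1 encodes the mu opioid receptor, the main target of morphine (ENSMUSG00000000766, chromosome 10, 6758506 to 7038198). It was at 2.90, 1.75, 1.99 and 2.38 CPM in the batch 1 Cre somas and at 2.25, 3.28, 1.63 and 3.83 CPM in the batch 2 Cre somas. The central axon Cre libraries had 4.91, 2.15, 0.904 and 0 CPM, and the peripheral axon Cre libraries 0, 2.19, 0 and 1.21 CPM. All 8 Cre somas thus held Oprm1 within a narrow band, and both axon groups held it in some libraries and not in others. Central axon controls were at 0, 0, 0 and 1.02 CPM, and all 3 peripheral axon controls were at 0. Soma controls were not empty: the batch 2 controls had 2.82, 4.69, 0 and 3.99 CPM, a range that spanned that of their Cre somas. Batch 1 soma control 3 alone held 42.6 CPM (395 counts, Wilson 95% interval 38.6 to 47.0), with 0 in the other 3 controls. Both Cre soma groups lay above both axon control groups with no overlap. These were the only 4 of the 28 pairs of groups that were apart for Oprm1, and the share over all genes was not computed. A share of 1.19% of its exon length lies opposite Ipcef1.

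Oprd1 encodes the delta opioid receptor (ENSMUSG00000050511, chromosome 4, 132110726 to 132144486). The central axon Cre libraries had 4.43, 0.897, 0.0900 and 2.11 CPM and the batch 1 Cre somas 3.21, 2.04, 0 and 0.794 CPM. The batch 2 Cre somas had 0.687, 1.09, 0.407 and 1.202 CPM, above their 4 controls at 0.166, 0, 0 and 0.221 CPM with no overlap. In peripheral axons Oprd1 was counted in Cre replicate 2 alone, at 0.664 CPM, and the 3 controls were at 0. Batch 1 soma controls were all at 0. The Cre soma mean of 1.51 CPM was 4.26-fold the floor of 3 counts per library there, a bound that covers counting error only. The filter on low counts left Oprd1 out of all 4 comparisons of Cre with control.

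Oprk1 encodes the kappa opioid receptor, the receptor for dynorphin (ENSMUSG00000025905, chromosome 1, 5588466 to 5606131). It was at 3.68, 3.68, 14.0 and 29.1 CPM in the central axon Cre libraries. The batch 1 Cre somas had 0.518, 0.974, 0 and 7.28 CPM and the batch 2 Cre somas 2.06, 1.67, 1.83 and 1.72 CPM. Central axon levels were thus higher than those of most somas, with 1 soma library inside the axon range. Central axon controls overlapped them, with 5.09, 24.7, 0 and 25.1 CPM. Peripheral axon Cre libraries had 0, 0.664, 3.66 and 0 CPM, and their 3 controls were at 0. Oprk1 could not be separated from the control level in central axons.

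Oprl1 encodes the nociceptin receptor (ENSMUSG00000027584, chromosome 2, 181715016 to 181720985). The central axon Cre libraries had 27.7, 28.3, 62.8 and 106 CPM. The batch 1 Cre somas had 4.87, 10.5, 0.518 and 7.14 CPM, and the batch 2 Cre somas 5.37, 5.33, 3.87 and 6.35 CPM. Every central axon Cre library lay above all 8 Cre somas. The peripheral axon Cre libraries lay at the other end, with 3.92 CPM in replicate 2 and 0 in the other 3. Central axon controls had 112, 91.0, 0 and 48.9 CPM, so that the high central level was also present in 3 of 4 control libraries. Batch 1 soma control b (1 of the 2 columns under the same header) held 166 CPM (Wilson 95% interval 158 to 175), whereas the other 3 held 0 to 0.324 CPM.

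Cnr1 encodes the cannabinoid receptor of neurons (ENSMUSG00000044288, chromosome 4, 33924593 to 33948831). The central axon Cre libraries had 24.5, 57.4, 14.5 and 65.8 CPM, and the batch 1 Cre somas 4.87, 11.98, 0 and 11.8 CPM, with no overlap. The peripheral axon Cre libraries had 0, 3.79, 0.976 and 4.68 CPM, and the batch 2 Cre somas 7.93, 6.23, 5.19 and 9.33 CPM, again with no overlap but in the other direction. Cnr1 thus stood above the soma in central axons and below it in peripheral axons. Its controls varied widely, from 0 to 47.0 CPM in central axons and from 11.2 to 89.9 CPM in the batch 2 somas, where all 4 controls lay above all 4 Cre libraries. The batch 1 soma controls had 3 counts or fewer each.

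The GABA-B receptor, the target of baclofen, needs the ligand-binding subunit encoded by Gabbr1 (ENSMUSG00000024462, chromosome 17, 37045966 to 37075067) and the subunit encoded by Gabbr2 that couples to the G protein (ENSMUSG00000039809, chromosome 4, 46662305 to 46991873). In Cre libraries Gabbr1 had 274, 238, 111 and 269.7 CPM in central axons, 212, 273, 157 and 557 CPM in batch 1 somas and 158, 256, 129.7 and 208 CPM in batch 2 somas. The peripheral axon Cre libraries were lower, at 9.97, 138, 68.8 and 128 CPM, with replicate 1 far below the others. Gabbr2 followed the same order, with 187, 123, 88.5 and 148 CPM in central axons, 115, 162, 94.3 and 263 CPM in batch 1 somas, 102, 179, 92.2 and 144 CPM in batch 2 somas and 19.0, 109, 25.9 and 50.8 CPM in peripheral axons, all in Cre libraries. Across the 16 Cre libraries the ratio of Gabbr1 to Gabbr2 per length ran from 0.453 to 2.29 with a median of 1.38 (SD of the log2 ratio 0.53). The 4 batch 2 Cre somas lay between 1.21 and 1.34, and the widest spread among Cre groups was that of the peripheral axons, which held both the lowest and the highest value. The 14 control libraries in which the ratio could be formed ran from 0.00390 to 96.3 (SD of the log2 ratio 3.28). The wide spread lay in batch 1. Batch 2 soma controls ran from 0.431 to 1.55 and peripheral axon controls from 1.06 to 2.27, inside or near the range of the Cre libraries. In some batch 1 controls 1 subunit was abundant with the other nearly missing. Batch 1 soma control 3 had 622 CPM of Gabbr2 and 2.80 CPM of Gabbr1, and batch 1 soma control 1 had 1.10 CPM of Gabbr2 and 123 CPM of Gabbr1.

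**Figure D3:**
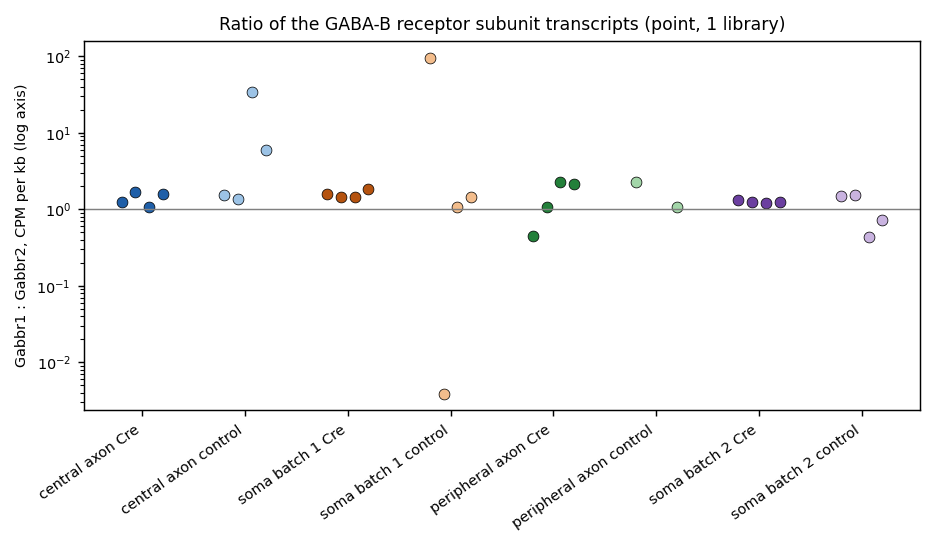
Ratio of Gabbr1 to Gabbr2 in CPM per kilobase of exon, on a log axis, with 1 point for each library in the 8 groups and a line at a ratio of 1. Cre libraries kept between 0.453 and 2.29. Batch 1 soma controls ran from 0.00390 to 96.3 and central axon controls from 1.37 to 34.5, whereas batch 2 controls lay between 0.431 and 2.27. Not drawn is 1 peripheral axon control with 0 counts of both genes.

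Htr1d encodes a serotonin receptor on which triptans act (ENSMUSG00000070687, chromosome 4, 136423524 to 136444398). The central axon Cre libraries had 2.36, 0, 13.7 and 7.85 CPM, and the batch 1 Cre somas 2.38, 10.1, 0.259 and 7.01 CPM. The batch 2 Cre somas had 5.56, 2.89, 2.80 and 3.89 CPM, whereas the peripheral axon Cre libraries had 4.13, 0.0660, 0 and 0.347 CPM. Htr1d had no overlap in 11 of the 28 pairs of groups, the most among the receptor genes, and Adora1 had none in 10. Several of these pairs set 1 batch against the other, and the share over all genes was not computed. Batch 1 soma controls were all at 0. The Cre soma mean of 4.95 CPM was 13.9-fold the floor per library there, a bound that covers counting error only. All 4 Cre libraries lay above the controls, the lowest with 3 counts, which is the floor. That order was seen for 28% of all genes tested in that comparison. Htr1d was not among those tested, since the filter on low counts left it out. Batch 2 soma controls went the other way, at 12.3, 17.8, 14.99 and 17.7 CPM, all above their Cre somas. Axon controls had 0 counts of Htr1d in 6 of 7 libraries, and the other, central axon control 2, was at 0.512 CPM.

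Sstr2 encodes a somatostatin receptor (ENSMUSG00000047904, chromosome 11, 113619342 to 113626028) and was counted mainly in central axon libraries. The central axon Cre libraries had 2.92, 1.88, 2.53 and 10.1 CPM. The batch 1 Cre somas had 0, 0, 0 and 0.926 CPM, the batch 2 Cre somas 0.375, 0.514, 0 and 0.286 CPM, and all 4 peripheral axon Cre libraries 0. Central axon controls had 10.6, 0, 0 and 0.205 CPM, so that 1 control was as high as the highest Cre library.

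Adora1 encodes the adenosine receptor of type A1 (ENSMUSG00000042429, chromosome 1, 134199223 to 134235431). The Cre libraries had 43.9, 66.9, 75.6 and 103 CPM in central axons, 28.2, 55.9, 44.0 and 66.4 CPM in batch 1 somas, 32.2, 42.0, 20.4 and 28.7 CPM in batch 2 somas and 6.57, 23.0, 8.05 and 4.85 CPM in peripheral axons. Central axon controls were at 125, 225, 72.5 and 96.7 CPM, above all 4 batch 1 Cre somas. Its counts are uncertain, since 20.1% of its exon length lies opposite Mybph, a gene of striated muscle, and 17.4% of its 50-base stretches also occur in another gene. Mybph was at 0 in all central axon libraries, at 0 to 3.16 CPM in peripheral axon Cre libraries and at 2.34 to 5.14 CPM in batch 2 Cre somas. In peripheral axon control 2 Mybph reached 58.6 CPM beside 39.9 CPM of Adora1.

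The first comparison asked which receptor transcripts were recovered with tagged ribosomes above the level of the pulldown without a tag. No receptor gene passed the test in any of the 4 tissue samples by edgeR's quasi-likelihood test (Benjamini-Hochberg adjusted p under 0.05 over all genes tested, the rule used throughout). In central axons 7 of the 10 were tested (all but Oprm1, Oprd1 and Htr1d) and 0 called, against 0.0141% of all genes tested. In peripheral axons 4 were tested (Cnr1, Gabbr1, Gabbr2 and Adora1) and 0 called, against 0% of all genes. In batch 1 somas 5 were tested (Oprm1, Oprl1, Gabbr1, Gabbr2 and Adora1) and 0 called, against 4.42% of all genes. In batch 2 somas 8 were tested (all but Oprd1 and Sstr2) and 0 called, against 0%. By edgeR's unadjusted p under 0.05, the counts were 0 of 7 in central axons (4.82% of all genes), 0 of 4 in peripheral axons (3.68%), 1 of 5 in batch 1 somas (15%) and 2 of 8 in batch 2 somas (16.4%). DESeq2 called 0 in central axons (1.53% of all genes), 0 in peripheral axons (0.193%), 0 in batch 1 somas (16.1%), where it gave no adjusted p for Oprm1, and 2 in batch 2 somas (7.6%).

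The receptor genes nearest the threshold were lower in Cre than in control libraries, in the batch 2 somas. Cnr1 was at 7.17 ± 1.83 CPM (SD, n = 4) in Cre somas and 40.8 ± 36.3 CPM (SD, n = 4) in controls, a log2 difference of -2.25 (SE 0.68, edgeR adjusted p = 0.136). Htr1d was at 3.79 ± 1.28 CPM (SD, n = 4) and 15.7 ± 2.59 CPM (SD, n = 4), a log2 difference of -1.80 (SE 0.65, edgeR adjusted p = 0.199). DESeq2 called both, with adjusted p = 0.00979 for Cnr1 and 0.00111 for Htr1d, and without batch 2 soma control 5 Cnr1 was also called by edgeR (-2.54, adjusted p = 0.0307). Beside these differences, summed markers of large-diameter sensory neurons (6 genes) were at 271 to 390 CPM in the Cre somas and 410 to 2204 CPM in the controls, and fibroblast markers (6 genes) at 173 to 364 CPM and 907 to 3656 CPM. Their part in the result was not tested. In that comparison 1 receptor gene was higher (Oprd1) and 2 were lower (Cnr1 and Htr1d) in every Cre library than in every control. Of all tested genes 4.29% were higher and 7.58% lower in that way, and Oprd1 was not among those tested. Oprd1 was at 0.407 to 1.202 CPM in these Cre somas, around the floors of controls 6, 7 and 8 (0.664 to 0.833 CPM). In batch 1 somas Oprm1 had a log2 difference of -7.08 (SE 2.87, edgeR adjusted p = 0.280). Without control 3, the single control with Oprm1 counts, Oprm1 was called higher (7.32, edgeR adjusted p = 0.00703), a size that depends on edgeR's prior count because the remaining controls were at 0. The other receptor genes tested had adjusted p-values from 0.341 to 1.00. Their differences in central axons included 0.72 (SE 1.34) for Cnr1, 0.60 (SE 0.80) for Gabbr2, -0.16 (SE 1.26) for Oprl1 and -0.81 (SE 0.48) for Adora1.

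The second comparison set central axons against the somas of batch 1, in Cre libraries, where all 10 genes were tested. Oprl1 was called higher in axons, and 1 of 10 was called in all, against 13.7% of all genes tested, of which 8.63% were higher and 5.11% lower. Oprl1 was at 56.1 ± 36.8 CPM in axons and 5.76 ± 4.196 CPM in somas (SD, n = 4 each), a log2 difference of 2.84 (SE 0.68, edgeR adjusted p = 0.0161), and was higher in 4 of 4 axon libraries than in any soma library. Without central axon Cre replicate 4 the call was lost (log2 difference 2.33, adjusted p = 0.0725), and it was lost with the controls in the same fit (3.19, adjusted p = 1.00), while the fits that left out any of the other 7 libraries kept it. Sstr2 had a difference of 3.86 (SE 1.46, edgeR adjusted p = 0.0949), which DESeq2 called (3.97, adjusted p = 0.0339, with 2 of 10 called against 21.7% of all genes), and the differences of Cnr1 (2.09, SE 0.89, adjusted p = 0.135) and Oprk1 (2.11, SE 1.17, adjusted p = 0.252) did not pass. Without batch 1 Cre soma 4, Sstr2 (adjusted p = 0.0171) and Oprk1 (4.13, adjusted p = 0.0376) were called by edgeR. Oprl1, Cnr1 and Sstr2 had axon libraries all above the soma libraries, 3 of 10, where 21% of all tested genes did. Of the 8 nociceptor markers 4 were called lower in central axons and 0 higher. The GABA-B subunits had differences of -0.82 (SE 0.40) for Gabbr1 and -0.61 (SE 0.36) for Gabbr2, and Adora1, Oprd1, Htr1d and Oprm1 were between -0.52 and 0.12. The median over the 10 genes was 0.03, beside 0.05 over all genes tested.

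The scaling mattered to that comparison. With library size alone in place of TMM the median of all genes moved up by 0.45, from 0.05 to 0.50, and the share of called genes that were higher in axons went from 62.8% to 88.0%. The difference of Oprl1 was then 3.29 (edgeR adjusted p = 0.0104). Oprd1 and Htr1d turned from -0.05 and -0.14 to 0.32 and 0.28.

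The third comparison set peripheral axons against the somas of batch 2, in Cre libraries, where 9 of 10 genes were tested (all but Sstr2). Gabbr2 and Adora1 were called lower in axons, 2 of 9, against 31.2% of all genes tested, of which 12.5% were lower and 18.7% higher. Gabbr2 was at 51.3 ± 41.1 CPM in axons and 129 ± 40.0 CPM in somas (SD, n = 4 each), a log2 difference of -1.49 (SE 0.50, edgeR adjusted p = 0.0425), with 3 of 4 axon libraries below every soma library. Adora1 was at 10.6 ± 8.38 CPM and 30.8 ± 8.95 CPM (SD, n = 4 each), a log2 difference of -1.67 (SE 0.53, edgeR adjusted p = 0.0324), also with 3 of 4 below. Both calls were lost when any of 6 libraries was left out (peripheral axon Cre replicates 3 and 4 and each of the 4 soma libraries), with adjusted p up to 0.104 for Gabbr2 and 0.0895 for Adora1. The differences in those fits ran from -1.65 to -1.30 for Gabbr2 and from -1.825 to -1.49 for Adora1. Scn10a was also called lower in these libraries (log2 difference -1.39, SE 0.49, edgeR adjusted p = 0.0492), as were 6 of the 8 nociceptor markers, while all 7 Schwann cell markers were called higher. Their part in the receptor result was not tested.

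Leaving out peripheral axon Cre replicate 2, the deepest, made edgeR call Oprd1 (adjusted p = 0.00829) and Oprl1 (adjusted p = 0.00236) lower, and leaving out replicate 1 did so for Gabbr1 (adjusted p = 0.0255) and Htr1d (adjusted p = 0.00240). All 9 tested receptor genes had negative differences in peripheral axons, from -0.88 (SE 1.18) for Oprk1 to -2.38 (SE 1.29) for Oprl1. The median was -1.72, beside -0.03 over all genes tested. With library size alone the median of all genes moved up by 0.21 and Gabbr2 was at -1.32 (edgeR adjusted p = 0.0578). DESeq2 called 3 of the 9 (39.8% of all genes), adding Gabbr1 (-1.42, adjusted p = 0.0454), which had a difference of -1.28 (SE 0.59, edgeR adjusted p = 0.121) in the quasi-likelihood test. Of the 9, Cnr1 alone had all 4 axon libraries below all 4 soma libraries, 1 of 9, where 16% of all tested genes did.

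**Figure D4:**
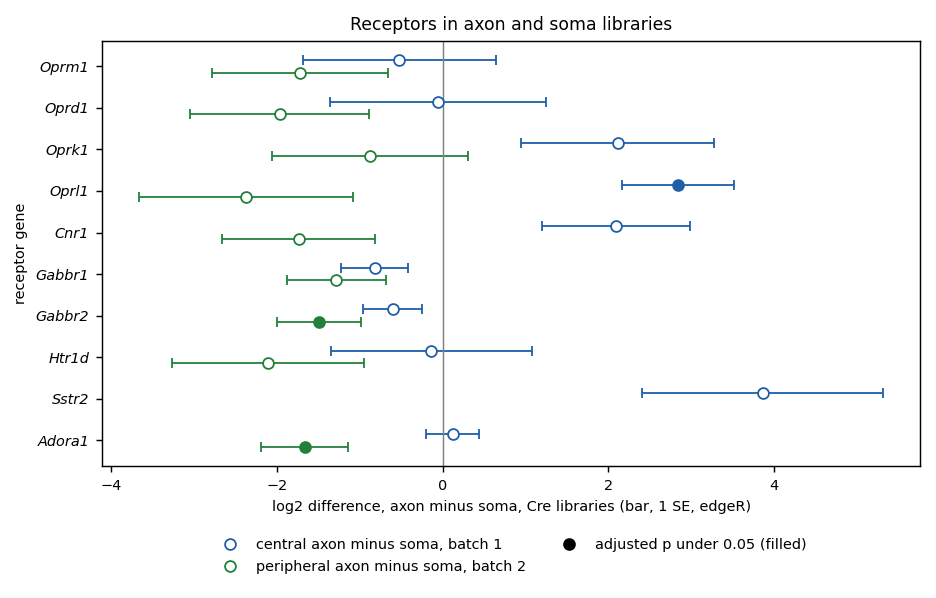
Log2 difference of each receptor gene between axon and soma Cre libraries, central axons against batch 1 somas and peripheral axons against batch 2 somas, with bars of 1 SE and filled points for an adjusted p under 0.05. Oprl1 is called higher in central axons and Gabbr2 and Adora1 lower in peripheral axons, and Sstr2 was not tested in peripheral axons.

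Central and peripheral axons were then compared through the difference between the 2 differences, each axon relative to its own somas. Oprl1, Sstr2 and Adora1 were called, all higher in central axons, 3 of 10 against 13.1% of all genes tested, of which 7.2% were higher and 5.88% lower. For Oprl1 the central difference exceeded the peripheral one by 5.25 on the log2 scale (SE 1.38, edgeR adjusted p = 0.0170), and the call held in all 16 fits that left out 1 library. The size ran from 4.75 to 11.9 over those fits, the highest without peripheral axon Cre replicate 2, the single peripheral axon Cre library with Oprl1 counts. For Adora1 it was 1.96 (SE 0.62, edgeR adjusted p = 0.0424), a call kept in 3 of the 16 such fits. For Sstr2 the test passed (edgeR adjusted p = 0.0308, kept in 10 of 16) but the size depends on edgeR's prior count, because every peripheral axon library was at 0 and somas held 8 counts or fewer. Cnr1 was just outside the threshold (3.97, SE 1.36, edgeR adjusted p = 0.0589) and was called by DESeq2, which called 4 of 10 (19.7% of all genes). All 10 genes had positive differences, with a median of 2.11 beside 0.26 over all genes tested. The same contrast was near 0 for Scn10a (-0.03, SE 0.79), and 0 of 8 nociceptor markers were called. Markers of other cells differed: 4 of 6 for astrocytes were called higher and 0 lower, and 6 of 7 for Schwann cells lower and 0 higher. Their part in the receptor result was not tested. Central axon controls had means of 62.9 CPM for Oprl1 and 130 CPM for Adora1, against 56.1 and 72.3 CPM in the central axon Cre libraries.

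Somas of the same tissue and genotype in both batches gave the size of the batch difference. Of 9 receptor genes tested 0 were called by edgeR, against 9.69% of all genes. DESeq2 called 0 (13% of all genes), and 1 (Adora1, 0.65, SE 0.29) had an edgeR unadjusted p under 0.05 (19.3% of all genes). The differences of batch 1 minus batch 2 ran from -0.27 (SE 0.52) for Oprm1 to 0.84 (SE 0.95) for Oprd1. That of Oprl1 was 0.10 (SE 0.63), and the largest SE was 1.02, for Oprk1. Rpl10a, the gene of the L10a protein, was called lower in batch 1 (-1.85, SE 0.37, edgeR adjusted p = 0.00519).

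The ligands of these receptors, from a list of 14 genes for opioid peptides, somatostatin, endocannabinoid metabolism, GABA synthesis and adenosine formation, stood higher in central axon than in soma libraries for several members. Of 13 tested, 6 were called higher in central axons and 0 lower: Sst (somatostatin), Gad2 and Gad1 (GABA synthesis), Pnoc (the precursor of nociceptin, the ligand of the Oprl1 product), Pdyn (prodynorphin) and Penk (proenkephalin). Of all genes tested 8.63% were higher and 5.11% lower. All 6 calls held in each of the 8 fits that left out 1 library. The list's median was 1.03, beside 0.05 over all genes. Penk was at 84.2 ± 47.5 CPM in axons and 4.55 ± 3.62 CPM in somas (SD, n = 4 each, log2 difference 3.80, SE 0.81, edgeR adjusted p = 0.00979). Pnoc was at 26.7 ± 14.5 CPM in axons, with 1 count at most in any soma library. Gad2 was at 45.2 ± 16.4 CPM in axons and 0 in all 4 somas, at least 144-fold higher than the floor per library. All 6 genes had higher means in the central axon controls than in the central axon Cre libraries: Sst was at 277 ± 49.3 CPM, Pnoc at 64.6 ± 21.5 CPM, Penk at 124 ± 76.2 CPM and Gad1 at 139 ± 15.996 CPM (SD, n = 4 each) there. Gad1 and Gad2 also belong to the list of spinal neuron markers given above.

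**Figure D5:**
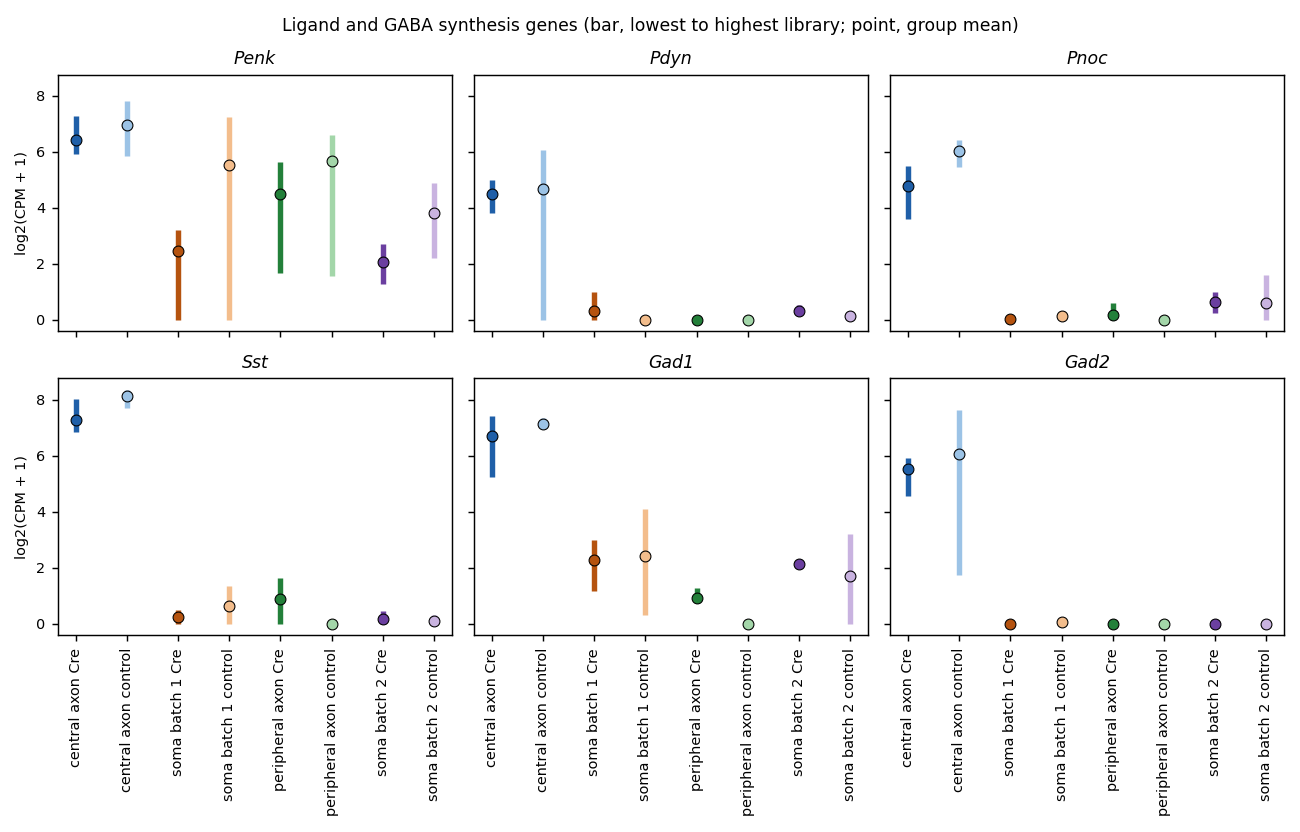
Levels of Penk, Pdyn, Pnoc, Sst, Gad1 and Gad2 in the 8 groups, as log2(CPM + 1), with bars from the lowest to the highest library and points at the group mean. The 6 genes were highest in the central axon groups, where Cre and control libraries overlapped.

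In peripheral axons 4 of 9 genes on the ligand list were called higher than in somas and 1 lower, where 18.7% of all genes were higher and 12.5% lower. The higher genes were Napepld, Mgll and Daglb, enzymes of endocannabinoid and related lipid metabolism, and Penk (log2 difference 2.497, SE 0.78, edgeR adjusted p = 0.0307). Mgll, which degrades the endocannabinoid 2-arachidonoylglycerol, was at 663 ± 339 CPM in axons and 280.1 ± 53.6 CPM in somas (SD, n = 4 each, log2 difference 1.00, SE 0.31, edgeR adjusted p = 0.0306). Gad1 was the gene called lower. Of these 5 calls 0 held in every fit that left out 1 library: each was lost without batch 2 Cre soma 5, 7 or 8, and Penk and Mgll also without peripheral axon Cre replicate 4. Mean Penk in the peripheral axon controls was 49.5 ± 47.2 CPM (SD, n = 3). In those controls Mgll was at 575 ± 176 CPM and Daglb at 194 ± 59.4 CPM (SD, n = 3 each). Napepld was at 11.8 ± 16.95 CPM there (SD, n = 3). Cre peripheral axons averaged 21.3 ± 19.5 CPM for Penk and 217 ± 51.6 CPM for Daglb (SD, n = 4 each). They averaged 11.3 ± 9.77 CPM for Napepld (SD, n = 4).

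Of the G protein list (13 genes of Gi/o alpha subunits and partner beta and gamma subunits), 6 were called lower in peripheral axons and 0 higher, where 12.5% of all genes were lower and 18.7% higher, with a median of -0.75 beside -0.03. They included Gng3 (log2 difference -2.34, SE 0.39, edgeR adjusted p = 0.00126), Gnb5 (-1.35, SE 0.26, 0.00267) and Gnao1, the alpha subunit that predominates in neurons (-1.54, SE 0.52, 0.0426). The calls of Gng3, Gnb5 and Gnb4 held with any 1 library left out, and that of Gnao1 held only without peripheral axon Cre replicate 1 or 2. In central axons Gng7 and Gng4 were called higher and Gnb2 lower, where 8.63% of all genes were higher and 5.11% lower, with a median of -0.54 beside 0.05. Of these 3 calls, that of Gng7 held in all 8 fits that left out 1 library and those of Gng4 and Gnb2 in 2 each. Gnao1 itself was at 685 ± 219 CPM in central axon, 395 ± 246 CPM in peripheral axon, 1059 ± 135 CPM in batch 1 soma and 1041 ± 196 CPM in batch 2 soma Cre libraries (SD, n = 4 each).

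Receptor regulators (19 genes of receptor kinases, arrestins, RGS proteins, KCTD subunits and other partners) gave the largest count. In peripheral axons 10 of 17 tested were called lower and 1 higher, where 12.5% of all genes were lower and 18.7% higher, with a median of -1.38 beside -0.03. Those lower included Rgs19 (log2 difference -2.08, SE 0.36, edgeR adjusted p = 0.00149), Cnrip1, which binds the cannabinoid receptor (-1.61, SE 0.31, 0.00274), and Kctd8, an auxiliary subunit of the GABA-B receptor (-2.37, SE 0.55, 0.00723). Kctd12, another auxiliary subunit of the GABA-B receptor, was the one called higher (2.72, SE 0.59, 0.00519), at 32.2 ± 15.7 CPM in peripheral axons and 4.47 ± 3.68 CPM in somas (SD, n = 4 each). Kctd12 was at 49.9 ± 45.9 CPM (SD, n = 3) in the peripheral axon controls and 42.5 ± 30.8 CPM (SD, n = 4) in the batch 2 soma controls. All 7 Schwann cell markers were also called higher in these axons, and their part in the Kctd12 result was not tested. Of the 11 calls 7 held with any 1 library left out, those of Rgs19, Cnrip1, Kctd8 and Kctd12 among them. In central axons 3 of 19 were called higher (Grk3, Rgs20 and Rgs9) and 1 lower (Rgs10), with a median of -0.01 beside 0.05. Of all genes tested there 8.63% were higher and 5.11% lower. The call of Rgs10 held with any 1 library left out, while Grk3 was lost without central axon Cre replicate 2, Rgs20 without replicate 4 and Rgs9 in 6 of the 8 fits. In the difference between the axons, each set against its somas, 9 of 19 were called higher in central axons and 0 lower, where 7.2% of all genes were higher and 5.88% lower, and 3 of the 9 calls held in all 16 fits that left out 1 library.

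Effectors (13 genes of adenylyl cyclases, inwardly rectifying potassium channels and calcium channels) had 4 of 10 tested called higher in central axons, all adenylyl cyclases: Adcy3, Adcy8, Adcy2 and Adcy1. Of all genes tested 8.63% were higher. The calls of Adcy3 and Adcy8 held with any 1 library left out, that of Adcy2 was lost without central axon Cre replicate 2 or 4, and that of Adcy1 was lost in 5 of the 8 fits. Adcy3 was at 0.224 ± 0.281 CPM in batch 1 and 3.39 ± 0.327 CPM in batch 2 Cre somas (SD, n = 4 each). It was called lower in batch 1 (log2 difference -3.84, SE 0.91, edgeR adjusted p = 0.0168), where 9.69% of all genes were called in either direction. Adcy1 had means of 206 ± 157 CPM in central axons, 41.0 ± 24.5 CPM in somas (Cre libraries) and 527 ± 454 CPM in central axon controls (SD, n = 4 each). The list's median was 1.25 beside 0.05. In peripheral axons 1 of 10 was called, Adcy6, higher (log2 difference 3.33, SE 0.60, edgeR adjusted p = 0.00186), and the median was 0.02 beside -0.03. Adcy6 averaged 33.7 ± 17.3 CPM in Cre peripheral axons (SD, n = 4). Controls of the same tissue averaged 27.5 ± 22.6 CPM (SD, n = 3).

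Among 20 other Gi/o-coupled receptors of related families, 2 of 13 tested were called higher in central axons than in somas and 0 lower, where 8.63% of all genes were higher and 5.11% lower. They were Grm2, a metabotropic glutamate receptor at 4.28 ± 1.65 CPM in axons with 3 counts at most in a soma library, and Sstr1, a second somatostatin receptor gene, at 7.34 ± 5.06 CPM in axons and 0.155 ± 0.311 CPM in somas (SD, n = 4 each, log2 difference 4.95, SE 1.39, edgeR adjusted p = 0.0332). Of the 8 fits that left out 1 library, 4 kept the call of Grm2 and 2 that of Sstr1. In peripheral axons Adra2a, the alpha-2A adrenergic receptor on which clonidine acts, was called higher (log2 difference 1.94, SE 0.63, edgeR adjusted p = 0.0360) and Chrm4 lower, with 0 counts in all 4 axon libraries. The call of Adra2a was lost without peripheral axon Cre replicate 4 or any 1 of the 4 somas. Htr1b, a triptan receptor like Htr1d, was the 1 gene of the 5 lists called between Cre and control in batch 1 somas (edgeR adjusted p = 0.0321). Of all genes 4.37% were called higher there. Htr1b was at 12.3 ± 2.42 CPM (SD, n = 4) against 0 in every control. That mean was 34.8-fold the floor per library, a bound that covers counting error only. The call of Htr1b held in 1 of the 8 fits that left out 1 library, the one without control 3. In the others the edgeR adjusted p was up to 0.0943. It was also lost with the replicate block, which left 0 genes called of all tested. That block used only the libraries numbered 1 and 3 of each group, so pairing and fewer libraries cannot be told apart there. In the Cre against control comparisons of the other 3 tissue samples, 0 genes of any of the 5 lists were called by edgeR.

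The genes most like 4 of the receptor genes were sought over the 16 Cre libraries by Pearson's r of log2(CPM + 1), among 14614 genes with at least 10 counts in at least 8 of those libraries. These values describe libraries that share tissue, batch and depth, and carry no test. Closest to Oprm1 were Htr3b, a subunit of the serotonin-gated channel (r = 0.934), Smim24 (0.910) and Rtn4rl1 (0.902). Closest to Cnr1 were Mlc1, a gene of astrocytes (0.970), Rnf112 (0.963) and Asb13 (0.960). Closest to Gabbr1 were Ptprn (0.977), Tmem35a (0.973) and Cacna1b, the N-type calcium channel that GABA-B receptors inhibit (0.970), while Gabbr2 ranked 39 with r = 0.918. Closest to Htr1d were B130034C11Rik (0.904), Slc26a7 (0.852) and Eid2b (0.832).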

How the data were processed

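The deposited values are raw counts for each gene, in 1 table for batch 1 and 1 for batch 2, with a column for every library per the file headers. Alignment used STAR 2.7.2b and the mm10 build, per the submitters' processing notes. The counting program, its strand setting and the handling of duplicates are not given in the sources used here. Libraries were made with a SMART-Seq v4 kit from under 1 ng of RNA, per the labels' protocols. In batch 1 the same header names 2 soma control columns, which were assigned to that group as replicates a and b. No 2 replicates agreed within sampling noise (over 45 pairs, chi-square divided by its degrees of freedom was at least 22.5).

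Counts were scaled to CPM and fitted in R 4.3.3 with edgeR 4.0.16 (filterByExpr defaults, TMM, glmQLFit, glmQLFTest), using only the groups compared, with Benjamini-Hochberg adjustment over all genes tested and 0.05 as the threshold. The SE is the log2 difference divided by the square root of F. The edgeR fits of Cre against control and of axon against soma were checked on simulated counts, drawn with a common dispersion for all genes. Those of the difference between axons and of the somas between batches were not. Alternatives were DESeq2 1.42.0, library size alone, no filter on low counts, all 4 groups of a batch in one fit, a replicate block and leaving out each library. Not every receptor gene is named in each comparison, and of the lists up to 6 called genes a comparison are named. The genes and lists were chosen with earlier results of these data known.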

Additional observations from a re-analysis of the deposited data

Results flagged for a closer look

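In groups of 4 libraries, 16 of the 66 combinations of receptor gene and group that could be examined had 1 library set apart. Its gap to the nearest neighbour exceeded 0.829 of the group's range, a limit passed by about 1 in 20 groups of normally distributed values. That rate does not apply to low counts with many zeros, where 1 library above 0 is always flagged if the rest are at 0. Most of the flagged combinations hold 1 library above 0 with the rest at or near 0. Among Cre libraries these were Oprd1 in peripheral axon 2 (0.664 CPM), Oprl1 in peripheral axon 2 (3.92 CPM), Htr1d in peripheral axon 1 (4.13 CPM), Oprk1 in batch 1 soma 4 (7.28 CPM), Sstr2 in batch 1 soma 4 (0.926 CPM) and Sstr2 in central axon 4 (10.1 CPM). Among central axon controls they were Oprm1 in control 4 (1.02 CPM), Oprd1 in control 1 (0.727 CPM), Htr1d in control 2 (0.512 CPM) and Sstr2 in control 1 (10.6 CPM). Among batch 1 soma controls they were Oprm1 in control 3 (42.6 CPM), Oprk1 in control a (0.117 CPM), and both Oprl1 (166 CPM) and Adora1 (106 CPM) in control b. Among batch 2 soma controls they were Oprk1 in control 8 (11.1 CPM) and Sstr2 in control 6 (0.247 CPM).

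The difference from soma differed between central and peripheral axons for 3 receptor genes by edgeR's test of the difference itself, with adjusted p = 0.0170 for Oprl1, 0.0308 for Sstr2 and 0.0424 for Adora1.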

How the results depend on the processing

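Of 261 values recomputed under other settings, 233 kept their direction and side of the threshold, 4 lost and 9 gained a call and 15 changed sign. Of 570 recomputed with 1 library left out, 489 kept both, 32 lost and 9 gained a call and 40 changed sign. The cause of these changes was not tested. Depth limits Oprm1, Oprd1 and Sstr2, which had 0 counts in many libraries. By counting error alone, a count of 0 allows up to 0.153 to 0.833 CPM at these depths. That bound does not cover differences between libraries in the number of genes counted.

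Between Cre and control libraries, genes called over all genes tested in central axons numbered 2, against 217 by DESeq2, 34 with no filter on low counts, 1 with all 4 groups in one fit and 0 to 5 with a library left out. In peripheral axons they numbered 0, against 27 by DESeq2 and 1 with all 4 groups. In batch 1 somas they numbered 516, against 1878, 2244 with library size alone, 1700 with no filter, 2114 with all 4 groups and 0 to 3094 with a library left out. Receptor genes called there went from 0 to 1 with no filter, 1 with all 4 groups and 0 to 2 with a library left out (2 without control 3, 1 without Cre 3). In batch 2 somas all genes called numbered 0, against 1162, 257, 162 and 175 in the same order of settings, and 0 to 1826 with a library left out, and receptor genes called 0, against 2 by DESeq2 and 0 to 1 with a library left out.

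Between central axon and soma, receptor genes called numbered 1, against 2 by DESeq2, 2 with no filter, 0 with all 4 groups and 0 to 3 with a library left out (0 without central axon Cre 4, 3 without batch 1 Cre soma 4). All genes called numbered 1990, against 3144 by DESeq2, 15 with all 4 groups and 822 to 2717 with a library left out. Between peripheral axon and soma, receptor genes called numbered 2, against 1 with library size alone, 0 with all 4 groups and 0 to 4 with a library left out, and all genes 4818, against 1404 with all 4 groups. In the difference between axons, receptor genes called numbered 3, against 1 to 4 with a library left out, and all genes 2187, against 3290 by DESeq2 and 1394 to 2856.

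The replicate numbers were not taken as pairs, since the check was mixed: for central axon and batch 1 soma Cre libraries the same-number correlations of deviations were 0.238, -0.0599, 0.116 and 0.206, with a mean of -0.0416 between other numbers and 2 of 4 numbers best matched to their own. With the replicate block, receptor genes called between central axon and soma went from 1 to 3 (Cnr1 at 2.66 and Sstr2 at 5.30 joined), and Oprd1 turned to 0.13. All genes called between Cre and control went from 2 to 1 in central axons and from 516 to 0 in batch 1 somas. The block takes only libraries whose number occurs in both groups. In batch 1 somas, Cre against control, these were numbers 1 and 3, and in peripheral axons numbers 1, 2 and 4. Pairing and fewer libraries cannot be told apart there. The replicate block turned the difference between Cre and control of Oprk1 (0.24) and Oprl1 (0.33) in central axons, Cnr1 (4.84) and Adora1 (1.42) in peripheral axons, and Oprk1 (1.73), Oprl1 (0.32) and Gabbr2 (-0.011) in batch 2 somas. No paired analysis was possible for peripheral axon against soma or for soma batch 1 against batch 2 because these groups share no replicate numbers, and no block was fitted for the difference between axons because its peripheral axon and batch 2 soma libraries share none. Genes of the 5 lists kept their call with any 1 library left out for 10 of 19 between central axon and soma, 12 of 25 between peripheral axon and soma (Chrm4 among them, tested in 5 of the 8 fits) and 9 of 22 in the difference between axons.

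Other settings changed the sign of differences in 7 cases. In batch 2 somas, Cre against control, Oprm1 was at -0.073 with library size alone, and Gabbr2 at -0.27 with library size alone and -0.045 by DESeq2. Between central axon and soma, Oprd1 was at 0.32 and Htr1d at 0.28 with library size alone, and at 0.19 and 0.20 with all 4 groups. With a library left out, differences between Cre and control ran in central axons from -0.85 to 0.36 for Oprk1, -0.60 to 0.31 for Oprl1 and -0.12 to 5.68 for Sstr2, and in peripheral axons from -1.84 to 7.03 for Cnr1 and -1.24 to 2.59 for Adora1. They ran in batch 1 somas from -7.43 to 7.32 for Oprm1, -3.69 to 1.42 for Oprl1 and -5.25 to 0.16 for Gabbr2, and in batch 2 somas from -0.22 to 0.47 for Oprm1, -0.96 to 1.78 for Oprk1, -0.60 to 0.33 for Oprl1 and -0.17 to 0.17 for Gabbr2. Between central axon and soma they ran from -1.18 to 0.69 for Oprd1, -0.97 to 0.46 for Htr1d and -0.13 to 0.25 for Adora1. Between soma batches they ran from -1.86 to 0.54 for Oprk1, -0.36 to 0.47 for Oprl1, -0.44 to 0.34 for Cnr1, -0.025 to 0.46 for Gabbr2 and -0.30 to 0.72 for Htr1d.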
